A study of Mus musculus with 4 samples.

Results

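The apolipoproteins and their assembly factors are the proteins with which the liver packs and releases lipid. The genes described here are Apob, Mttp, Apoa1, Apoa2, Apoa4, Apoa5, Apoc3, Apoe, Apom and Lcat. They were found by symbol in the platform annotation, and each of the 10 had 1 probe set paired with that symbol alone. They are 10 of the 22180 genes that the arrays measured in this way, and all 10 passed the filter on dim genes, as did 12458 genes in all.

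The livers were those of male mice, either wild type (WT) or lacking Nrg4 (knockout, KO), which encodes a ligand of the ErbB receptors. From the age of 3 months both genotypes received a NASH diet, one that causes non-alcoholic steatohepatitis, over 20 weeks, and tissue was collected in the fed state. Each of the 4 arrays was hybridised with the RNA of 1 pool of livers, and each genotype had 2 pools. The sources used here do not give the number of animals in a pool, how the knockout allele was made or whether the WT mice were littermates. No group on another diet was analysed here, so every value is that of a liver under the NASH diet.

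Triglyceride leaves the hepatocyte in very low density lipoprotein (VLDL), a particle built around a single apolipoprotein B molecule that the microsomal triglyceride transfer protein loads with lipid in the endoplasmic reticulum. High density lipoprotein (HDL) forms when apolipoprotein A-I takes up cholesterol and phospholipid from cells, and lecithin-cholesterol acyltransferase then esterifies that cholesterol. Smaller apolipoproteins sit on both kinds of particle and set how fast lipases and receptors remove them from blood.

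In Nrg4 KO livers the structural apolipoproteins Apob, Apoa1 and Apoa2 differed from WT by 0.05 or less on the deposited log2 scale. After quantile normalization Apoa1 differed by 0.14 and Apoa2 by 0.16. The lowest KO levels relative to WT were those of Apom and Lcat. Both belong to HDL, but so do Apoa1 and Apoa2. A list of 11 tested genes of HDL formation and remodelling had a median difference of -0.01. Apom was 1.61-fold lower and Lcat 1.43-fold lower in KO. No member passed an adjusted p of 0.05 by limma, a linear model with a moderated variance, over all 12458 tested genes, of which 0.0482% passed. At an unadjusted p under 0.05 there was 1 member, Lcat, against 10.3% of the tested genes (with quantile normalization it was Apom and not Lcat). When its variance was allowed to follow intensity, limma also called none of the 10, against 1.09% of the tested genes (0.698% lower in KO), and the smallest adjusted p was that of Lcat at 0.0561.

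The promoters of Lcat and Apom, the pair with the largest differences, are shown with those of Apoa1, which differed little, and Apoa4, which had the largest difference in the other direction. Each is the 180 bases before the annotated start, 5′ to 3′ on the strand of the gene, from RefSeq on build GRCm38.p6. They lie at chr8:105943403-105943582 (minus strand, Lcat), chr17:35131802-35131981 (minus strand, Apom), chr9:46228450-46228629 (plus strand, Apoa1) and chr9:46240664-46240843 (plus strand, Apoa4). Capitals mark matches, on either strand, to GGTCA (the core of a nuclear receptor half-site), CAAAG (a core of the site bound by the hepatocyte factor HNF4) and TATAAA (the TATA box), motifs that do not share letters in these windows.
Lcat: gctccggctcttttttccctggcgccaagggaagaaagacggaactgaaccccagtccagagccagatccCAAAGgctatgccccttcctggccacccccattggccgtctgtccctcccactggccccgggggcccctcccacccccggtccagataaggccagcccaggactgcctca
Apom: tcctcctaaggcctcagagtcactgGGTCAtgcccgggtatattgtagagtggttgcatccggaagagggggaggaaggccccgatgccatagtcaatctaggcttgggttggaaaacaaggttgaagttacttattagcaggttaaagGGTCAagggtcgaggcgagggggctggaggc
Apoa1: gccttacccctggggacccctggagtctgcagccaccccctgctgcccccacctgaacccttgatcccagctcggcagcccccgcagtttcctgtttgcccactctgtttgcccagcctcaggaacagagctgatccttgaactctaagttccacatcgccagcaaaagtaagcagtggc
Apoa4: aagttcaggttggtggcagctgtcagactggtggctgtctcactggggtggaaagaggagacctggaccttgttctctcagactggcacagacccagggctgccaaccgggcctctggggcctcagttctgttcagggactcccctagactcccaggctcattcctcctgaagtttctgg

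The Apom window held 2 matches to GGTCA and the Lcat window 1 match to CAAAG, and the windows of Apoa1 and Apoa4 held no match. Only exact matches were searched, so a window without one is not shown to lack a binding site. Of 32851 promoter windows of the same length, 27.1% held GGTCA, 37.0% held CAAAG and 8.94% held TATAAA, so a match is a description of letters only. A promoter was found for 9 of the 10 genes, all but Apoc3.

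Levels are deposited log2 values whose zero point is unknown, so each gene is compared with itself across arrays and not with another gene. As a check of the labels, Nrg4 had values of 2.54 and 2.30 in WT and of 0.93 on both KO arrays. Its difference of -1.49 was not called by limma (adjusted p = 0.181, or 0.0594 when the variance followed intensity). A gene that limma did not call is therefore not shown to be unchanged. The KO and WT pools of a gene are said not to overlap when both KO values lie on the same side of both WT values, which held for 41.7% of the tested genes.

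**Figure D1:**
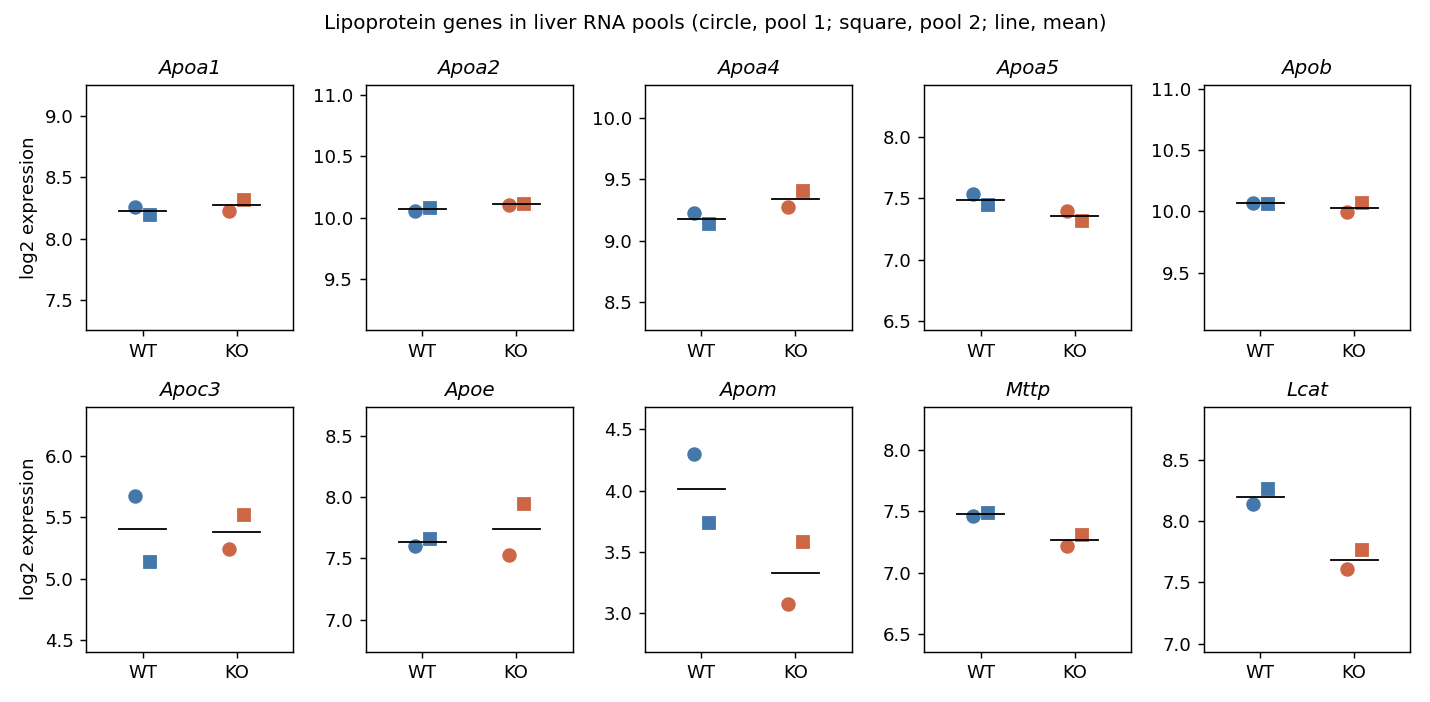
Deposited log2 expression of the 10 genes (vertical axis, each panel 2 log2 units high) in the WT and KO liver RNA pools, with circles for pool 1, squares for pool 2 and lines for the means of 2 pools. Both KO pools lie below both WT pools for Lcat, Apom, Mttp and Apoa5, and above them for Apoa2 and Apoa4.

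Apob encodes apolipoprotein B, the backbone of VLDL. Its log2 level was 10.07 in both WT pools, while KO pool 1 was at 9.99 and KO pool 2 at 10.07. The pools overlapped, and the difference, KO minus WT, was -0.04 ± 0.19 (SE, n = 2 pools each; limma, adjusted p = 0.961) with a 95% confidence interval of -0.50 to 0.43. Mttp encodes the transfer protein that lipidates apolipoprotein B. WT levels were 7.46 and 7.49, and KO levels 7.22 and 7.30. Both KO values lay below both WT values, and the gap between genotypes was wider than the gap between pools of either one. The difference was -0.21 ± 0.19 (SE; limma, adjusted p = 0.755; interval -0.68 to 0.25), which did not pass the test, and -0.13 with quantile normalization.

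Among the proteins of HDL, Apoa1 encodes its main structural protein and the activator of LCAT. Apoa1 stood at 8.26 and 8.19 in WT and 8.22 and 8.32 in KO, so the pools overlapped. The difference was 0.05 ± 0.19 (SE; limma, adjusted p = 0.953; interval -0.42 to 0.52). Apoa2, the second structural protein of HDL, was at 10.05 and 10.08 in WT and 10.10 and 10.11 in KO. Both KO values were above both WT values, but by hundredths of a log2 unit, with a difference of 0.04 ± 0.19 (SE; limma, adjusted p = 0.959; interval -0.42 to 0.50). The sign of Apoa2 turned with arrays centred on their medians (-0.0064). Quantile normalization gave differences of 0.14 for Apoa1 and 0.16 for Apoa2, against 0.05 and 0.04 with the deposited values.

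Lcat encodes the plasma enzyme that esterifies HDL cholesterol and is made by hepatocytes. WT livers gave levels of 8.14 and 8.26, and KO livers 7.61 and 7.76. The groups did not overlap, and the lowest WT value was above the highest KO value by more than either pair of pools differed. The difference was -0.51 ± 0.19 (SE; limma, adjusted p = 0.467; interval -0.996 to -0.03), and 15.9% of the tested genes differed by more in either direction. Lcat was the 1 gene of the 10 whose unadjusted interval left out 0, but this depended on the setting. With quantile normalization the unadjusted p by limma was 0.0603 for Lcat and 0.041 for Apom. Without any 1 pool the difference of Lcat lay between -0.59 and -0.44. Its adjusted p by limma over the alternatives that kept all pools ran from 0.0561 to 0.602.

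Apom encodes apolipoprotein M, a lipocalin of HDL that carries sphingosine 1-phosphate. WT livers gave levels of 4.30 and 3.74, and KO livers 3.07 and 3.58. Both KO pools lay below both WT pools, but the nearest pair, WT pool 2 and KO pool 2, were closer to each other than the pools of either genotype were. The difference was -0.69 ± 0.29 (SE; limma, adjusted p = 0.508; interval -1.41 to 0.04), and 8.13% of the tested genes differed by more in either direction. Leaving out WT pool 1 gave -0.41, WT pool 2 -0.97, KO pool 1 -0.43 and KO pool 2 -0.94. Of the 12448 other tested genes, the 5 whose values over the 4 arrays lay nearest to those of Apom, each centred on its WT mean, were Neb, Tmeff1, Pim3, Thnsl2 and Polr1a. Their Euclidean distances were 0.0668 to 0.140, and with 4 arrays this describes likeness of pattern only.

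Apoa4, Apoa5 and Apoc3 act on the triglyceride of circulating particles, and together with Apoa1 they form a cluster of neighbouring genes on chromosome 9, in the order Apoa1, Apoc3, Apoa4, Apoa5. Apoa5 encodes an activator of triglyceride removal by lipoprotein lipase, and Apoc3 an inhibitor of it. Apoa5 was at 7.54 and 7.44 in WT and 7.40 and 7.31 in KO. The KO pools lay just below the WT pools, with a difference of -0.13 ± 0.19 (SE; limma, adjusted p = 0.854; interval -0.60 to 0.34). Apoc3 was at 5.67 and 5.14 in WT and 5.24 and 5.52 in KO. The WT pools stood 0.54 apart and enclosed both KO pools, and the difference was -0.02 ± 0.26 (SE; limma, adjusted p = 0.981; interval -0.67 to 0.62). Its sign depended on single pools, since leaving out WT pool 1 gave 0.24, WT pool 2 -0.29 and KO pool 1 0.12. Quantile normalization gave 0.03.

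Apoa4 encodes apolipoprotein A-IV, which mouse liver as well as intestine makes and which accompanies triglyceride secretion. It was at 9.22 and 9.13 in WT and 9.28 and 9.41 in KO. Both KO pools lay above both WT pools, and of the 10 genes Apoa4 had the largest difference upwards, 0.16 ± 0.19 (SE; limma, adjusted p = 0.821; interval -0.31 to 0.64). That is 1.12-fold, and without KO pool 2 the difference was 0.10. Both Apoa4 and its neighbour Apoa5 differed from WT by less than 1 SE.

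Apoe encodes apolipoprotein E, the ligand by which remnant particles bind their receptors, and macrophages and stellate cells make it as well as hepatocytes. Its WT levels were 7.60 and 7.66, with 7.53 for KO pool 1 and 7.95 for KO pool 2. The KO pools stood 0.42 apart, on either side of the WT pair. The difference was 0.11 ± 0.22 (SE; limma, adjusted p = 0.907; interval -0.45 to 0.66), or 0.32 without KO pool 1 and -0.10 without KO pool 2. In the same pools 18 of 21 tested macrophage markers were above 0, with a median of 0.41 and a mean level of 3.89 and 4.02 in WT and 4.40 and 4.42 in KO. The 3 below 0 were Marco, a scavenger receptor, at -2.37, Timd4, a receptor for phosphatidylserine, at -0.40 and Vsig4. When the variance followed intensity, limma called Marco lower (adjusted p = 0.0181) and Cd63 higher at 0.98 (adjusted p = 0.0330). The stellate and fibroblast markers had a median of 0.52 over 16 genes, with 14 above 0. In the same fit limma called Dpt (1.97, adjusted p = 0.00369) and Pdgfra (1.67, adjusted p = 0.0294) higher. Both KO pools lay above both WT pools for 10 of the 16, against 22.2% of the tested genes. The rest of this list was near 0 with overlapping pools: Lrat (0.11), Colec11 (0.05), Tagln (0.03), Acta2 (0.01), Des (-0.09) and Reln (-0.11). The part of these cells in the Apoe values was not tested.

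**Figure D2:**
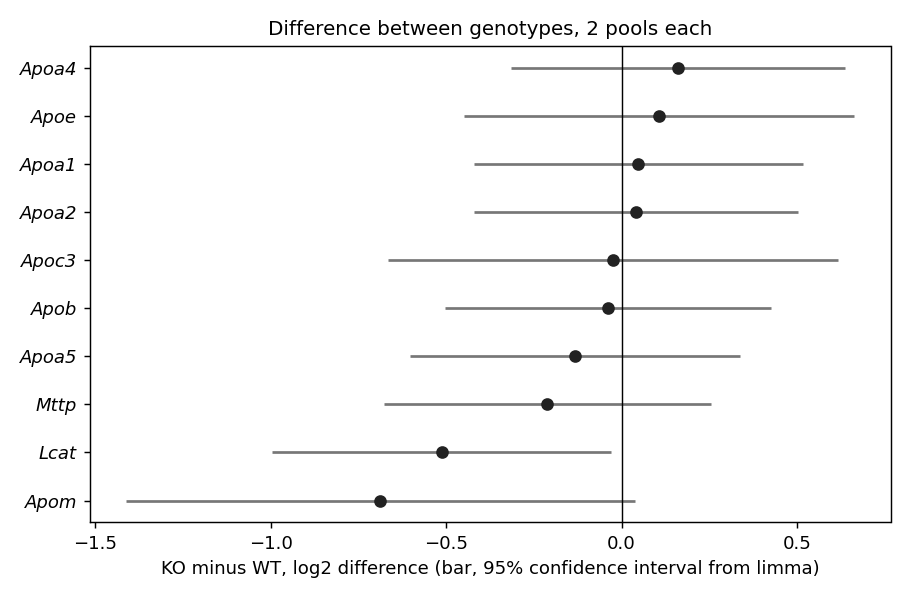
Difference between KO and WT pools (horizontal axis, log2, KO minus WT) for each of the 10 genes, with points for the estimate and bars for the 95% confidence interval from limma, unadjusted for the number of genes. Lcat is the 1 gene whose interval leaves out 0, and only the interval of Apom reaches past -1.

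As a group the 10 genes were centred near 0, with 4 above it and 6 below, a median of -0.03 and a span from -0.69 to 0.16. The median of all tested genes was 0.01. Both KO pools lay below both WT pools for 4 of the 10, against 19.5% of the tested genes, and above them for 2, against 22.2%. The median took the opposite sign with quantile normalization (0.04) and without KO pool 1 (0.02), and leaving out WT pool 2 gave -0.11 and KO pool 2 -0.10. For 9 of the 10 genes the whole interval lay within 1 log2 unit of 0, so that a 2-fold difference lay outside it, and Apom was the exception. Lcat was within that bound only narrowly, since its interval began at -0.996. With arrays centred on their medians Lcat was at -0.56 ± 0.23 (SE), so this depends on the setting. The intervals rest on the spread between pools, which limma moderates over all tested genes, and not on that between animals. Apob, Apoa2 and Mttp thus all had an SE of 0.19, though their own pools lay closer together. In bulk liver RNA fewer cells of a type and less RNA per cell cannot be told apart.

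The genes around these members in the lipoprotein pathway were taken from 6 lists. Of their 110 distinct tested genes limma called 0 at an adjusted p under 0.05 (0.0482% of all tested genes were called). At an unadjusted p under 0.05 there were 15 (10.3% of all tested genes were). When the variance followed intensity 2 were called, Ces3b and Pltp (1.09% of all tested genes were). Of 32 tested genes of VLDL assembly and secretion, 12 were above 0 and 20 below, with a median of -0.07 (-0.15 without WT pool 2, -0.11 without KO pool 2 and -0.01 with quantile normalization). Both KO pools lay below both WT pools for 14 of them, against 19.5% of all tested genes, and above for 4, against 22.2%. The largest difference was that of Ces3b, a carboxylesterase, at 6.44 and 6.50 in WT and 3.66 and 5.09 in KO. Ces3b differed by -2.10 ± 0.46 (SE; limma, adjusted p = 0.297), or an adjusted p of 0.0294 by limma when the variance followed intensity. The KO pools of Ces3b stood far apart, and relatives of this family share sequence, so its probe set may measure them too. Aadac, a deacetylase that hydrolyses lipid esters in the endoplasmic reticulum, differed by -0.68 ± 0.21 (SE). Apobec1, the enzyme that edits the Apob messenger to its short form, differed by 0.65 ± 0.20 (SE), with 4.73 and 4.87 in WT and 5.38 and 5.52 in KO (limma, adjusted p = 0.379 for Apobec1 and 0.393 for Aadac). The short and full-length forms of Apob were not told apart on these arrays. P4hb, the partner subunit of the transfer protein, and Tm6sf2, a factor of VLDL lipidation, are named for their roles after their values were seen. P4hb differed by -0.05 and Tm6sf2 by -0.34, with SEs of 0.19.

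Of 11 tested genes of HDL formation and remodelling, 5 were above 0 and 6 below, with a median of -0.01 (-0.04 to 0.15 without 1 pool, above 0 without WT pool 2 or KO pool 2, and 0.07 with quantile normalization). Pltp, the phospholipid transfer protein of plasma, was at 6.39 and 6.29 in WT and 6.99 and 6.96 in KO. The KO pools of Pltp lay well above the WT pools, with a difference of 0.63 ± 0.19 (SE; limma, adjusted p = 0.379), or an adjusted p of 0.0467 by limma when the variance followed intensity. Macrophages also express Pltp, and their marker list had a median of 0.41 in the same pools. The part of macrophages in the Pltp values was not tested. Gpld1, a phospholipase carried on HDL, and Pon1, its paraoxonase, differed by -0.46 ± 0.21 and -0.45 ± 0.23 (SE). The differences of Lcat and Pltp, which both remodel HDL, had opposite signs. Abca1, which exports cholesterol to apolipoprotein A-I, and Scarb1, the HDL receptor, also named after their values were seen, were at 0.21 ± 0.20 and 0.37 ± 0.20 (SE).

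The other apolipoproteins had a median of -0.15 over 12 tested genes, 4 above 0 and 8 below (-0.26 without WT pool 1 and -0.10 without KO pool 1). Those with the smallest p were Apol9b at -0.68 ± 0.22 (SE), Apol9a at -0.45 ± 0.19 and Apoh, a phospholipid-binding plasma protein, at -0.30 ± 0.19. Apol9a and Apol9b are near-identical copies, so their values are not independent. Apoc1, the neighbour of Apoe, and Apoc2, the cofactor of lipoprotein lipase, named after their values were seen, were at 0.05 ± 0.20 and 0.13 ± 0.21 (SE). Lipases and their regulators had a median of -0.17 over 11 tested genes, 3 above 0 and 8 below (-0.12 without KO pool 1 and -0.08 with quantile normalization). Gpihbp1, which anchors lipoprotein lipase to capillaries, was at -0.55 ± 0.25, Sel1l, an adaptor of endoplasmic reticulum quality control, at -0.41 ± 0.19 and Lpl, the lipase itself, at 0.46 ± 0.21 (SE).

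Receptors and clearance genes had a median of 0.12 over 17 tested genes, 11 above 0 and 6 below (0.03 without WT pool 2). Those with the smallest p were Sorl1, a sorting receptor, at 0.60 ± 0.21 (SE), the heparan sulfate epimerase Glce at -0.63 ± 0.22 and the endocytic adaptor Dab2 at 0.55 ± 0.24. Transcriptional regulators of apolipoprotein genes had a median of -0.17 over 28 tested genes, 10 above 0 and 18 below (-0.07 without WT pool 1 and -0.26 without WT pool 2). Onecut1 was at -0.67 ± 0.19, Foxa3 at -0.85 ± 0.24 and Foxo1, an insulin-controlled activator of Mttp and Apoc3, at -0.67 ± 0.22 (SE; limma, adjusted p = 0.368 for Onecut1 and Foxa3 and 0.418 for Foxo1). Hnf4a, which binds many apolipoprotein promoters and is named after its value was seen, was at 7.40 and 7.52 in WT and 7.23 and 7.13 in KO, a difference of -0.28 ± 0.19 (SE; limma, adjusted p = 0.678).

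**Figure D3:**
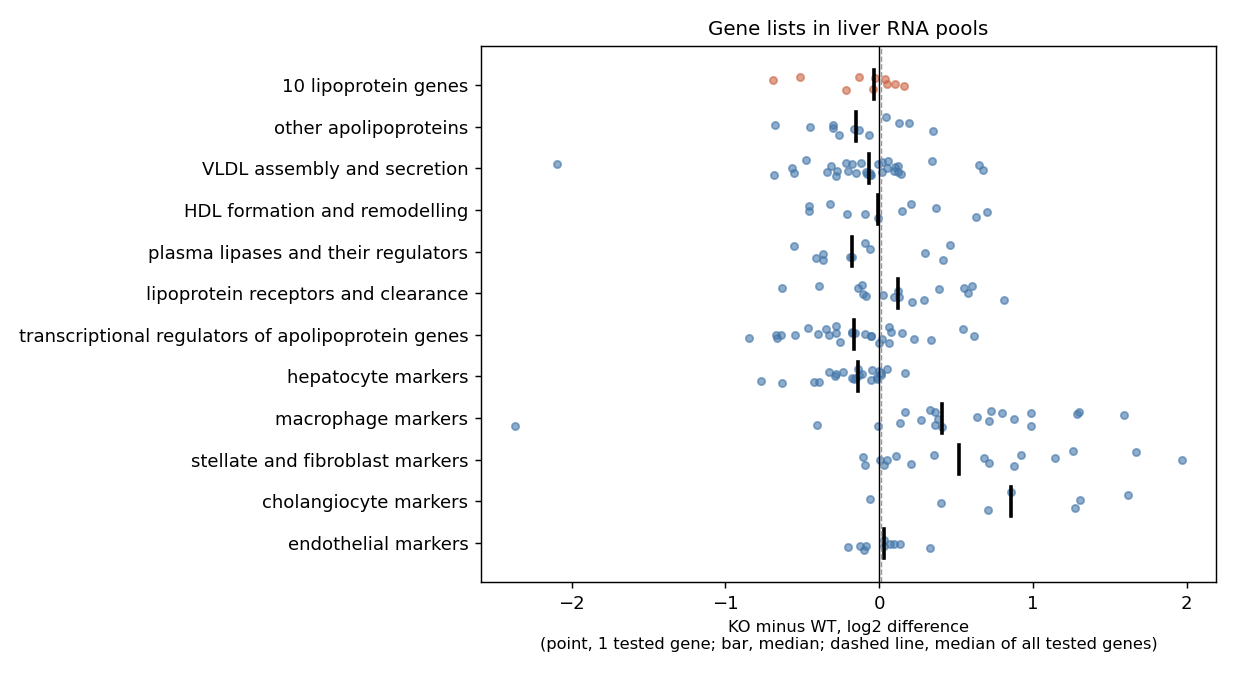
Difference between KO and WT pools (horizontal axis, log2, KO minus WT) for every tested gene of each list (points), with bars for the list medians and a dashed line for the median of all tested genes. The 10 lipoprotein genes lie between -0.69 and 0.16. The macrophage markers are centred at 0.41, the stellate and fibroblast markers at 0.52 and the cholangiocyte markers at 0.86. The endothelial markers are centred at 0.03 (-0.01 with arrays centred on their medians).

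Hepatocyte markers lay mostly on the same side of 0 as Lcat, Apom and Mttp. Of 23 tested markers 4 were above 0 and 19 below, with a median of -0.14 (-0.09 without KO pool 1 and -0.23 without KO pool 2) and a mean level of 8.96 and 8.92 in WT and 8.73 and 8.79 in KO. Alb was at -0.15 ± 0.19 and Ttr at 0.17 ± 0.20 (SE). When the variance followed intensity, 2 of the markers were called lower by limma, Pck1 and Cps1 (0.698% of all tested genes were called lower). Lcat (-0.51), Apom (-0.69) and Mttp (-0.21) all lay below the median of these markers. Only Kng1 (-0.77) and Pck1 (-0.63) of the markers were lower than Lcat, and only Kng1 was lower than Apom. The part of hepatocyte content in Lcat, Apom and Mttp was not tested. The cholangiocyte markers had a median of 0.86 over 7 tested genes of 12 listed, which was the value of Sox9, whose pools overlapped. Of the 7, 6 were above 0, and Krt19 was below it at -0.06 with overlapping pools. Leaving out WT pool 2 gave these markers a median of 0.54, leaving out KO pool 2 one of 0.48, and a stricter filter on dim genes 1.29. Of these markers limma called Cdh1 higher at 1.62 when the variance followed intensity (adjusted p = 0.0206). Apob, Mttp and Apoa4 are also genes of the intestine. Of 12 enterocyte markers 4 passed the filter on dim genes. Of these Fabp2, at means of 7.41 in WT and 6.98 in KO, and Anpep, at 6.95 and 6.90, were well above the median of all probe sets. Alpi, at 0.56 in WT and 0.77 in KO, and Cdx1, at 0.52 and 0.61, were near that median of 0.542. Among those that did not pass, Vil1, Lct, Sis, Cdx2, Mep1a and Muc2 had means below it in both genotypes. Slc5a1 was above it in KO only (0.74) and Olfm4 in WT only (0.60). The part of intestinal tissue in the values was not tested.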

How the data were processed

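The authors deposited a table of log2 expression for 41345 probe sets and 4 Mouse Gene ST 2.1 arrays. The submitters' processing notes name RMA, oligo and limma. Their versions, the genome build and the annotation were not given in the sources used here. Array medians of 0.520 to 0.637 and values from -1.12 to 11.9 leave the zero point unknown. Per the labels' protocols 400 ng of RNA was labelled.

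Probe sets paired with 1 symbol in the platform annotation (23521) were kept, the brightest per gene. Tested were genes whose mean reached 0.542, the median over probe sets, with limma 3.58.1 in R 4.3.3 (lmFit, eBayes, without covariates, with 2 residual and 3.67 prior degrees of freedom, Benjamini-Hochberg adjustment). The procedure was tested on simulated data. Members and lists were chosen with earlier results of these data known. Named are the members, the 3 genes with the smallest p of each list (some not printed), list genes called by limma, Nrg4, Alb, Ttr and the 5 nearest to Apom. P4hb, Tm6sf2, Abca1, Scarb1, Apoc1, Apoc2, Hnf4a, Vil1, Lct, Sis, Cdx2, Anpep, Timd4 and Vsig4 were named after their values were seen. So were Lrat, Colec11, Tagln, Acta2, Des, Reln, Krt19, Alpi, Cdx1, Mep1a, Muc2, Slc5a1 and Olfm4. Alternatives were the variance model, dim-gene filter, scaling, probe sets, a replicate block and leaving out pools. Nothing in the labels says how animals were divided between pools. The p-values therefore rest on the spread between pools, moderated over all tested genes, and not on that between animals. No scan date or slide was used, so no batch was tested.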

Additional observations from a re-analysis of the deposited data

How the results depend on the processing

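Over the 11 alternatives, Lcat, Apom, Mttp, Apoa5 and Apoa4 kept their direction in all. Apoa1 also kept its sign, but was near 0 at 0.0014 with arrays centred on their medians and 0.00036 without KO pool 2. In the alternatives that kept all pools, limma called none of the 10 lipoprotein genes. Quantile normalization moved Apoa1 to 0.14, Apoa2 to 0.16 and Apoa5 to -0.06. Signs that turned were those of Apoa2 (-0.0064 with arrays centred on their medians), Apob (0.046 with quantile normalization), Apoc3 (0.033 with quantile normalization) and, without 1 pool, Apoc3 (-0.29 to 0.24) and Apoe (-0.10 to 0.32), and the cause was not tested. The median of the 10 was -0.03, 0.039 with quantile normalization and -0.11 to 0.021 without 1 pool. Over all genes limma called 6, and 136 with a variance that follows intensity, while without 1 pool it called 0 (906 to 1314 at an unadjusted p under 0.05). The median of the HDL list was -0.04 to 0.15 without 1 pool and with arrays centred on their medians that of the VLDL list was -0.12 and that of the receptors 0.08. The deviations of same-numbered pools correlated at -0.0368, so they showed no shared shift, and the samples were not treated as pairs. Whether same-numbered pools were handled together cannot be told from this. With the pool number as a replicate block limma called 2 genes and no member (smallest adjusted p 0.564). Precision is limited by having 4 arrays.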
